A study of Homo sapiens with 6 samples.

Results

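Accessible chromatin was followed at 7 genes of the ETS family of transcription factors, FLI1, ETS1, ERG, ETS2, ETV6, SPI1 and GABPA, in K562 cells treated with phorbol 12-myristate 13-acetate (PMA). All sites of the deposited table that overlapped the gene body of a member or the 50 kb on either side of it were taken, which gave 209 of 181135 sites. ERG had 52 of them, ETS1 47, ETS2 29, ETV6 28, FLI1 23, SPI1 21 and GABPA 9. FLI1 and ETS1 lie next to each other on chromosome 11 with 97573 bases between them, and their windows shared 0 sites.

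K562 is a wild-type human line from a chronic myelogenous leukaemia, and PMA, a phorbol ester, switches on protein kinase C. Cells received 25 nM PMA for 0, 6 or 72 h, and 2 ATAC-seq libraries were made at each time by the Omni-ATAC protocol, in which a transposase cuts and tags open chromatin. The labels number the libraries 1 and 2 within a time but do not say whether they came from separate cultures, so p-values measure the spread between these libraries only. All libraries came from 1 cell line, and nothing here measures RNA or protein.

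ETS factors share a DNA-binding domain that recognises a GGAA core. FLI1 and ERG drive megakaryocyte genes and the platelet programme. ETS1 and ETS2 are related activators that act downstream of growth-factor and kinase signalling, ETV6 is a repressor whose inherited mutations lower platelet numbers, SPI1 (PU.1) directs myeloid differentiation and antagonises the erythroid factor GATA1, and GABPA is the DNA-binding subunit of GABP, which serves many broadly active promoters. In blood progenitors the balance between such factors goes with the choice between erythroid and megakaryocyte fates.

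The counts over all sites summed to between 12258890 and 35548737 per library, and the smallest library was in the 6 h group. At the 209 sites the counts ran from 9074 to 43856 per library, and the median site had 11 to 119 counts. Levels below are CPM, counts per megacount of the library after scaling the libraries by TMM, a method that assumes most sites keep their level. Fold changes are log2 values from edgeR's quasi-likelihood test over all tested sites, a site was called at a Benjamini-Hochberg adjusted p under 0.05, and 205 of the 209 sites passed the filter on low counts. As a check on the cells, the starts of GATA1, TAL1, TFRC and EPOR carried a deposited peak in both 0 h libraries, 4 of 5 erythroid starts that could be read. Of 3 megakaryocyte starts 2 (ITGA2B and GP6) had one, and of 2 lymphocyte starts 0. The same held for 1 of 3 monocyte starts (ITGAM) and for the 1 epithelial start read (KRT8). In bulk libraries, a change in the number of cells with an open site and a change of opening in each cell cannot be told apart.

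Promoter sequences were read before gene starts that the promoter table holds. Those of ETV6 and ETS2 are printed because both windows overlap listed sites and lie outside any annotated gene. The ETS2 window overlaps a neighbouring site, not the ETS2 start site described below, which begins 39 bases after this start. They are the 250 bases before the annotated start in RefSeq GRCh38.p14, on the plus strand, at chr12:11649424-11649673 for ETV6 and chr21:38804933-38805182 for the more upstream of the annotated ETS2 starts. Capitals mark GGAA on either strand, which appears as TTCC on the other.
ETV6: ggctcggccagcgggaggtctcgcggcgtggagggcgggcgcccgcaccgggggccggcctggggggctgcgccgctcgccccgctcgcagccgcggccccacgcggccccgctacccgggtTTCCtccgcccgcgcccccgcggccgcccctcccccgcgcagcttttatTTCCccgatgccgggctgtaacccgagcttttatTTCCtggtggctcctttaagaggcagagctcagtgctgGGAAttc
ETS2: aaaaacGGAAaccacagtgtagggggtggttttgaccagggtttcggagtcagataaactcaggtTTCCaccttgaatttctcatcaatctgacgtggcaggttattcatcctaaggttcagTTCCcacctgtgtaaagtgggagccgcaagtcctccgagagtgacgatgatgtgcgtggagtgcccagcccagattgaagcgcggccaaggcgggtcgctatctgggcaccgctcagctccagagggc
The ETV6 promoter held 4 matches to GGAA and the ETS2 promoter 3, where 92.7% of 35116 promoters of this length held at least 1 and the median promoter held 3. The GATA motif AGATAA occurred once in the ETS2 promoter and in 9.17% of all promoters. The RUNX motif TGTGGT, searched on both strands like the others, had 1 match in the ETS2 promoter and was in 11% of all. Neither promoter held the full ETS motif CCGGAAGT, present in 3.42% of promoters, or the AP-1 motif TGANTCA, present in 6.57%. The promoter of GABPA, which overlaps the neighbouring gene ATP5PF, held 1 CCGGAAGT.

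Across the 7 windows, gains outnumbered losses at both times. At 6 h, 68 of 205 tested sites were higher than at 0 h and 18 were lower, where 40.1% of all 177759 tested sites were called, 23.4% higher and 16.8% lower. At 72 h, 129 sites were higher (62.9%) and 21 lower (10.2%), where 67.4% of all tested sites were called, 38.2% higher and 29.2% lower. Between 6 and 72 h, 102 were higher and 24 lower, where 42.9% of all tested sites were called, 22.1% higher and 20.9% lower. The median log2 change of the tested member sites was 0.64 at 6 h and 1.89 at 72 h, and that of all tested sites 0.05 and 0.29. At 72 h, 1 site had no counts at 0 h, and setting it to the bound given by a floor of 3 counts left the median at 1.89.

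The authors' peak lists show the same sites as separate elements. Of the 209 sites, 33 and 48 overlapped a peak in the 0 h libraries, 53 and 79 at 6 h, then 158 and 161 at 72 h. Peaks in both 72 h libraries but no 0 h library were found at 102 sites (48.8%), against 33.1% of all listed sites. The reverse, a peak in both 0 h libraries and in no 72 h library, was found at 1 site, which lies downstream of ETS2, against 2.41% of all sites. By 6 h, 18 sites (8.61%) had gained a peak in both libraries of that time, against 7.91% of all. Only 22 sites (10.5%) had a peak in all 6 libraries, against 19.8% of all listed sites. The 72 h libraries also carried more peaks over the whole genome, 138914 and 142305 against 61873 and 69152 at 0 h.

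The choice of scaling mattered more for losses than for gains. Under all 5 scalings tried, 59 of the 68 sites stayed called higher and 9 of the 18 lower at 6 h, 114 of the 129 sites stayed called higher at 72 h, but 6 of the 21 stayed called lower. Of the calls between 6 and 72 h, 86 of 102 higher and 0 of 24 lower were kept under all 5. The median of all tested sites at 72 h moved from 0.29 with TMM to 1.26 when TMM factors came from the 35800 sites with a peak in all 6 libraries, so directions of small changes are relative to the scaling.

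**Figure D1:**
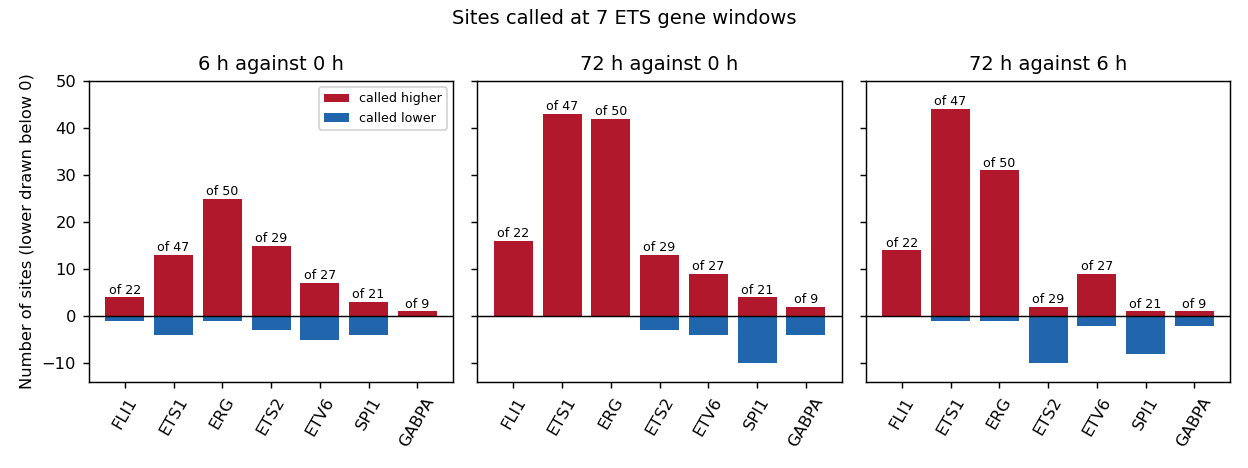
Number of sites called higher (bars above 0) or lower (bars below 0) at each gene in the 3 comparisons, by edgeR at an adjusted p under 0.05; the number over each bar is the number of sites tested. ETS1 and ERG held most of the gains, with 43 of 47 and 42 of 50 tested sites higher at 72 h, and with TMM SPI1 held the most losses, 10 of 21, of which 2 were called under all 5 scalings.

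The counts by time differed from gene to gene. Beside them, 23.4% of all tested sites were higher and 16.8% lower at 6 h, and 38.2% and 29.2% at 72 h. At ERG, 25 of 50 tested sites were already higher at 6 h and 42 at 72 h. ETS2 had 15 of 29 sites higher at 6 h and 13 at 72 h. At ETS1, 13 of 47 sites were higher at 6 h and 43 at 72 h, and at FLI1 4 of 22 and 16. ETV6 had 7 of 27 sites higher and 5 lower at 6 h, and 9 higher and 4 lower at 72 h. SPI1 had 4 of 21 higher and 10 lower at 72 h, and GABPA 2 of 9 higher and 4 lower. Of those losses, 2 at SPI1 and 1 at GABPA were called under all 5 scalings. Whether the genes differed from each other in timing was not tested. Both comparisons with 0 h share the 0 h libraries, so their values are given side by side.

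Summed over its window, ERG had 33.5 and 34.3 CPM at 0 h, 87.9 and 112.3 at 6 h, then 195.3 and 187.9 at 72 h. The 3 times did not overlap, and the log2 change was 1.57 ± 0.11 (SE, n = 2 per time) at 6 h and 2.50 ± 0.11 at 72 h, by edgeR with adjusted p = 1.1e-08 and 7.9e-12. ETS1 had 65.9 and 61.4 CPM at 0 h, 94.1 and 99.7 at 6 h, then 315.2 and 340.8 at 72 h. Its change at 6 h was 0.61 ± 0.09 and its change at 72 h 2.37 ± 0.09 (edgeR, adjusted p = 3.8e-05 and 3e-12). With TMM, window totals of all 19307 protein-coding genes tested were called in 87.2% at 72 h, 15.8% higher and 71.3% lower. At 6 h 62.1% were called, 14.7% higher and 47.4% lower. Between 6 and 72 h, 80.7% were called, 12.7% higher and 68% lower. In its change at 72 h the ERG total lay above 99.1% of those windows and the ETS1 total above 98.8%.

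The FLI1 window held less signal, 24.6 and 19.9 CPM at 0 h, 26.4 and 20.6 at 6 h, then 52.0 and 48.4 at 72 h. The 6 h libraries overlapped the 0 h libraries and the 72 h libraries were above both, with a log2 change of 0.06 ± 0.15 at 6 h (edgeR, adjusted p = 0.74) and 1.18 ± 0.14 at 72 h (2.8e-07). ETS2 went from 146.3 and 146.8 CPM to 203.7 and 254.2 at 6 h and stood at 171.9 and 172.6 at 72 h. Its rise at 6 h was 0.65 ± 0.10 (edgeR, adjusted p = 4.8e-05). The later fall of 0.41 with TMM (adjusted p = 0.00074) turned into a change of 0.22 with loess offsets and 0.26 with factors from the shared sites, so its direction depends on the scaling.

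ETV6 stayed between 62.1 and 78.7 CPM in all 6 libraries, and its log2 change at 72 h was 0.14 ± 0.10 (edgeR, adjusted p = 0.19). Under total-count scaling, loess offsets and shared-site factors the ETV6 total was called higher at 72 h, with changes of 0.64, 0.78 and 1.11. SPI1 had the most signal at 0 h, 251.3 and 286.2 CPM, with 212.0 and 237.4 at 6 h, then 134.5 and 145.5 at 72 h. GABPA had 105.1 and 93.4 CPM at 0 h, 87.1 and 87.9 at 6 h, then 50.8 and 60.3 at 72 h. With TMM the SPI1 and GABPA totals fell by 0.94 and 0.83 at 72 h, close to the median of all windows, -0.72. With loess offsets these 2 falls were no longer called, and with shared-site factors both values were slightly above 0.

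**Figure D2:**
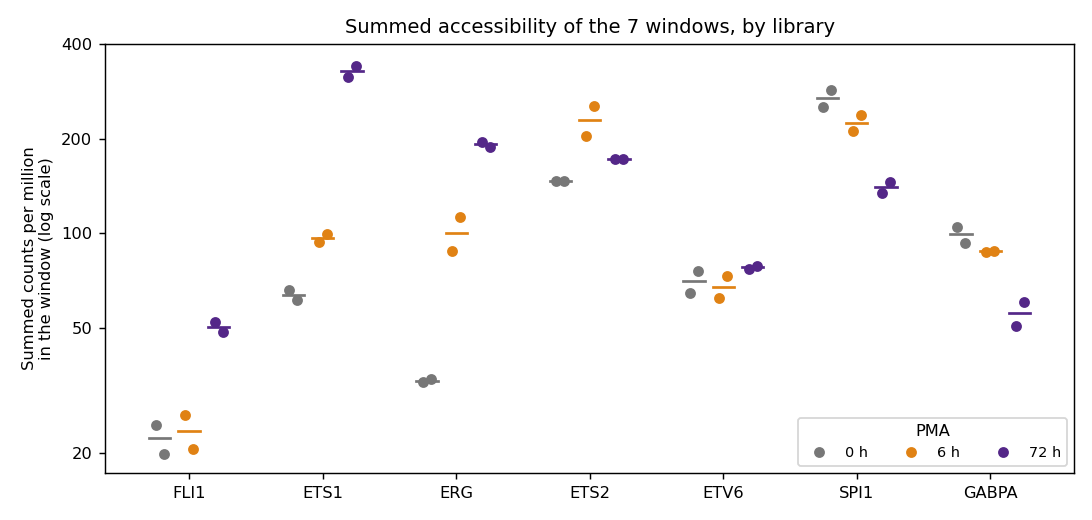
Summed CPM of the sites in each gene's window (log scale) by library; points are the 2 libraries of a time and short lines their mean. ERG rose at 6 h and again at 72 h, ETS1 and FLI1 rose mostly at 72 h, and SPI1 and GABPA were lower at 72 h on this TMM scale.

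At ETS1, sites inside the gene and on both flanks rose between 6 and 72 h, 44 of 47 in all. Of its 47 sites, 2 and 5 had a peak in the 0 h libraries, 5 and 12 at 6 h, then 36 and 37 at 72 h. The largest rise was at chr11:128463210-128463986, 123.96 kb inside the gene and close to its 3′ end. It had 0.58 and 0.24 CPM at 0 h, 0.94 and 0.89 at 6 h, then 12.8 and 13.7 at 72 h, so both late libraries stood apart from the other 4. The log2 change at 72 h was 5.07 ± 0.35 (edgeR, adjusted p = 3.2e-10). At 6 h it was 1.20 (adjusted p = 0.045), a call lost with RLE scaling (0.075) and with loess offsets (0.18).

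The site with the largest early rise at ETS1 lay 12.51 kb before the gene start, at chr11:128599673-128600454. It went from 0.13 and 0.29 CPM to 0.94 and 1.20 at 6 h, then 4.97 and 4.65 at 72 h, with no overlap between the times (log2 2.31 ± 0.53 at 6 h and 4.43 ± 0.45 at 72 h, edgeR adjusted p = 0.0015 and 2.5e-08). A further pair of sites was chosen after the values were seen, because they were the highest of the window at 72 h. The site at chr11:128626744-128628199, 39.91 kb before the start, had 4.35 and 3.30 CPM at 0 h, 9.63 and 13.3 at 6 h, then 30.9 and 33.5 at 72 h. The site 19.16 kb inside the gene had 2.01 and 1.43 CPM at 0 h, 2.64 and 2.78 at 6 h, then 21.8 and 26.8 at 72 h, and its deposited peaks had a fold enrichment of 11.99 and 13.28 at 72 h.

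An ETS1 element was open throughout, and whether it lies at an inner start of the gene could not be read. The site at chr11:128522099-128523122, 64.95 kb inside the gene, had 25.2 and 24.7 CPM at 0 h, 29.5 and 30.2 at 6 h, then 20.9 and 24.2 at 72 h, and it was the ETS1 site with a peak in all 6 libraries. Its change at 72 h was -0.15 ± 0.16 (edgeR, adjusted p = 0.42) with TMM, but it was called higher, by 0.35, 0.77 and 0.82, with total counts, loess offsets and shared-site factors. Its fall of 0.41 between 6 and 72 h (adjusted p = 0.04) also changed sign under the last 2 scalings.

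Of 47 ETS1 sites, 4 (8.51%) were called lower at 6 h, 2 of them under all 5 scalings, against 16.8% of all tested sites. The largest of these falls came before a rise. At chr11:128609796-128610233, 22.46 kb before the start, the libraries had 0.65 and 0.57 CPM at 0 h, 0 and 0.09 at 6 h, then 3.80 and 4.34 at 72 h. The 6 h libraries were below both other times. The ratio of 6 h to 0 h was 0.114 (edgeR, adjusted p = 0.0025), with an exact 95% binomial interval of 0.0219 to 0.380 that covers counting error only, and the ratio of 72 h to 6 h was 59.0 (20.02 to 287.6). No listed site lay at the ETS1 start used here, the outer end of the gene body. Starts of shorter ETS1 transcripts inside the gene could not be read. The nearest was 1558 bases inside the gene and had 0.32 and 0.38 CPM at 0 h and 1.34 and 1.25 at 72 h, with no peak in any library.

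The FLI1 window gained many weak sites late. Its sites beyond the gene end were nearest to KCNJ1, and some of these were among the gains. It had a peak at 3 and 3 of its 23 sites at 0 h, at 4 and 4 at 6 h, then at 18 and 18 at 72 h. Of its 22 tested sites 16 were higher at 72 h and 0 lower, but under all 5 scalings 10 stayed called higher. The largest rise, at both times, was 15.48 kb before the gene start at chr11:128669361-128669951. It went from 0.13 and 0.24 CPM to 1.28 and 0.92 at 6 h, then 2.97 and 2.76 at 72 h, each time above the one before. The log2 change was 2.43 ± 0.58 at 6 h and 3.87 ± 0.50 at 72 h (edgeR, adjusted p = 0.0019 and 7.3e-07).

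The largest FLI1 rise between 6 and 72 h among sites of at least 1 CPM was 41.30 kb before the start, at chr11:128643499-128644162. It had 1.23 and 1.24 CPM at 0 h, 1.11 and 0.95 at 6 h, then 2.77 and 3.89 at 72 h (log2 1.72 ± 0.36 against 6 h, edgeR adjusted p = 0.00056). Its rise against 0 h, 1.42, was not called with loess offsets (0.75, adjusted p = 0.063). The site nearest the FLI1 start, 2057 bases inside the gene, lies within 1 kb of an annotated start of LOC101929538. It had 0.52 and 1.00 CPM at 0 h, 4.18 and 2.97 at 6 h, then 3.05 and 2.62 at 72 h. The log2 change was 2.14 ± 0.39 at 6 h (edgeR, adjusted p = 0.00015). Between 6 and 72 h it was -0.30 ± 0.32 and was not called (edgeR, adjusted p = 0.47). This site and the next were chosen after their values were seen. The FLI1 site with the most signal on average, 91.79 kb inside the gene, had 5.65 and 4.01 CPM at 0 h, 4.09 and 2.97 at 6 h, then 7.11 and 8.06 at 72 h, and was the FLI1 site with a peak in all 6 libraries.

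At ERG some elements reached their 72 h level by 6 h and others rose further. It had a peak at 1 and 4 of its 52 sites at 0 h, at 8 and 17 at 6 h, then at 42 and 42 at 72 h, and at 0 sites in all 6 libraries. The largest 6 h rise was 16.24 kb inside the gene at chr21:38645224-38645863. It had 0.71 and 0.10 CPM at 0 h, 7.33 and 9.93 at 6 h, then 8.61 and 9.41 at 72 h, so the 6 h and 72 h libraries overlapped and both were far above 0 h. The log2 change was 4.57 ± 0.42 at 6 h (edgeR, adjusted p = 2.6e-08), 4.61 ± 0.42 at 72 h (6.3e-09) and 0.04 ± 0.27 between 6 and 72 h (0.92). With shared-site factors the last change was 0.71 and was called (adjusted p = 0.033).

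Neighbouring and distant ERG elements had the same early shape. Sites 15.12 and 182.88 kb inside the gene, named after their values were seen, had 0.67 to 0.78 and 0.78 to 0.96 CPM at 0 h. At 6 h they had 10.8 and 12.2, and 7.58 and 10.8 CPM, and at 72 h 9.10 and 10.1, and 8.90 and 10.7. Neither change between 6 and 72 h was called (adjusted p = 0.32 and 0.84). A site 17.95 kb before the gene start, chosen in the same way, rose from 0.78 and 1.15 CPM to 5.79 and 10.2 at 6 h, then 13.1 and 12.6 at 72 h.

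The largest ERG rise at 72 h came from a site with 4 counts in all at 0 h, 35.43 kb inside the gene at chr21:38626012-38626688. It had 0.26 and 0 CPM at 0 h, 1.96 and 1.42 at 6 h, then 5.28 and 5.59 at 72 h, and each time stood above the one before (log2 5.55 ± 0.56 at 72 h, edgeR adjusted p = 2.3e-08). The largest rise from 6 to 72 h was at chr21:38343512-38344151, 317.95 kb from the start and beyond the end of the gene. It had 0.46 and 0.24 CPM at 0 h, 0.26 and 0.06 at 6 h, then 3.21 and 3.42 at 72 h (log2 4.75 ± 0.56 against 6 h, edgeR adjusted p = 1.6e-06). The 0 h and 6 h libraries overlapped and the 72 h libraries were above both.

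The ERG site with a peak in both 0 h libraries had another course. This site, at chr21:38476191-38476871, 185.25 kb inside the gene, had 6.43 and 5.78 CPM at 0 h, 1.53 and 2.69 at 6 h, then 7.37 and 6.01 at 72 h. It fell by 1.44 at 6 h (SE 0.29, edgeR adjusted p = 0.0004) and rose by 1.57 from 6 to 72 h (0.00012), and its 0 h and 72 h libraries overlapped. Its change at 72 h, 0.13, was not called with TMM (0.65), but was called higher, by 0.637 and 1.103, with total counts and shared-site factors. No listed site lay within 1000 bases of any of the 4 annotated ERG starts, and the distances from a start to its nearest site ran from 3340 to 11227 bases.

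**Figure D3:**
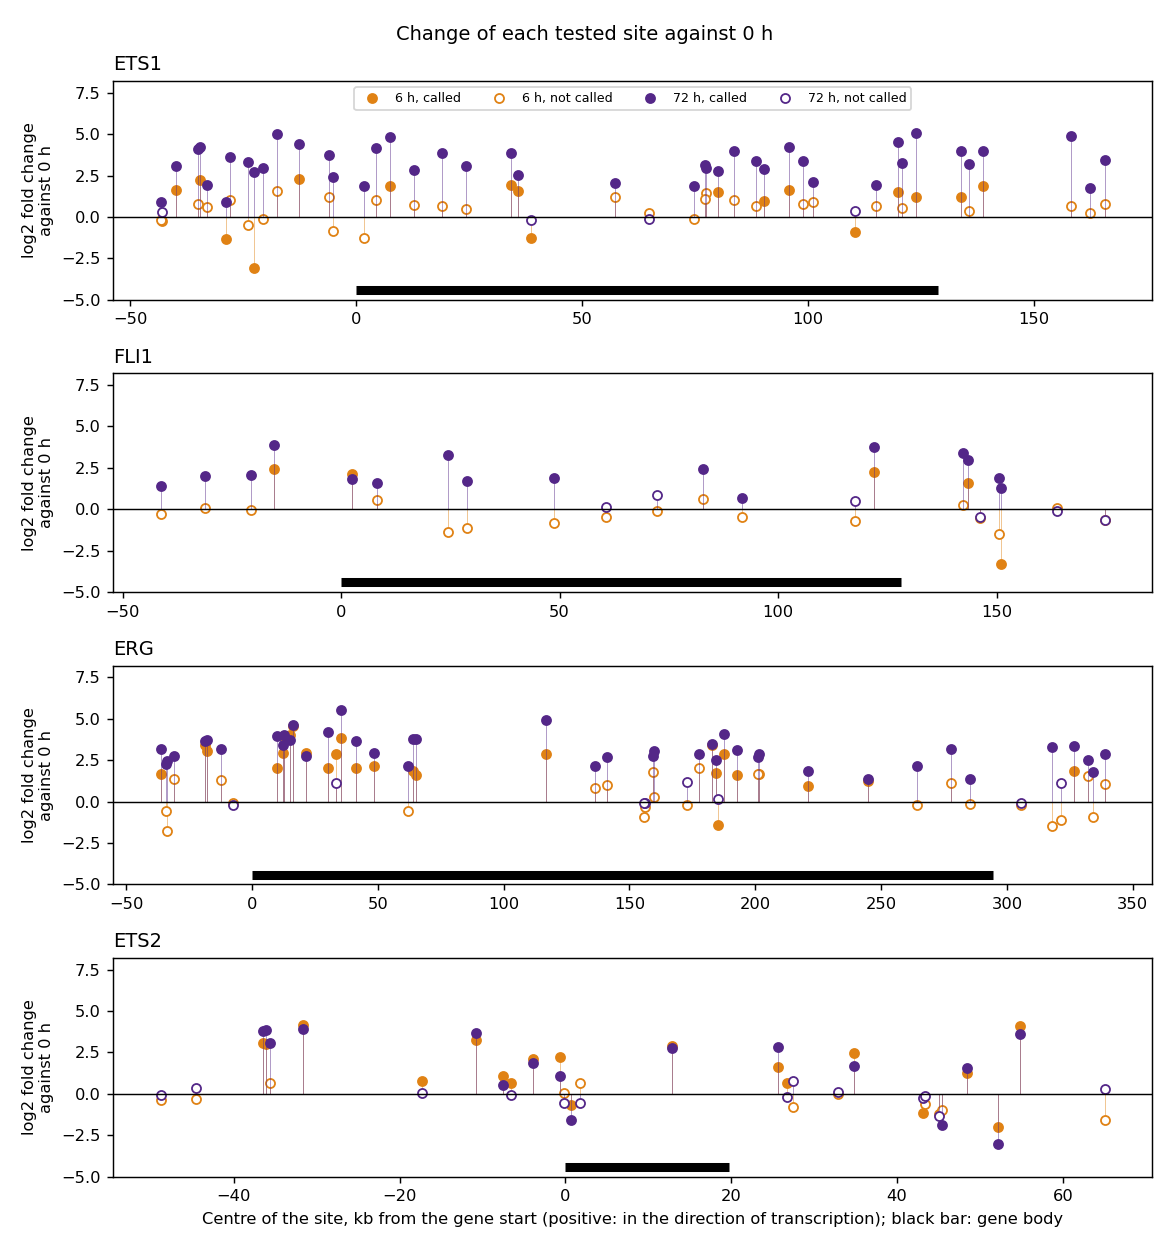
Log2 fold change against 0 h of each tested site at ETS1, FLI1, ERG and ETS2, by distance of its centre from the gene start in kb, at 6 h (orange) and 72 h (purple); filled points were called and black bars mark the gene bodies. At ETS1 the 72 h points lie well above the 6 h points along the gene, while at 15.12 and 16.24 kb inside ERG and at 31.69 kb before ETS2 the 6 h and 72 h points lie close together.

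ETS2 gained distal elements by 6 h while its gene start lost signal. Upstream, the site at chr21:38773115-38773875, 31.69 kb before the start and within 1 kb of an annotated start of LINC00114, had 1.04 and 0.53 CPM at 0 h, 12.4 and 14.2 at 6 h, then 11.0 and 11.4 at 72 h. Both treated times were far above 0 h, with log2 changes of 4.14 ± 0.30 and 3.89 ± 0.30 (edgeR, adjusted p = 1e-09 and 9.6e-10). The change between 6 and 72 h, -0.25 ± 0.22, was not called (0.37). A neighbouring site near another LINC00114 start, at chr21:38769331-38769881, was late, with 0.58 and 1.00 CPM at 0 h, 0.34 and 1.87 at 6 h, then 7.16 and 6.65 at 72 h (log2 2.39 ± 0.38 against 6 h, edgeR adjusted p = 3.8e-05).

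Downstream of ETS2 a loss lay beside a gain. The site at chr21:38856963-38857683, 52.14 kb from the start, had 9.68 and 7.55 CPM at 0 h, 2.39 and 2.06 at 6 h, then 1.11 and 0.97 at 72 h. Each time was below the one before, and the log2 value fell by 1.97 at 6 h and by 3.04 at 72 h (SE 0.29 in both, edgeR adjusted p = 1e-05 and 1.1e-08), under all 5 scalings. Both 0 h libraries carried a peak there and neither 72 h library did, which held for 1 member site. The next site, 54.88 kb from the start and named after its values were seen, had 1.17 and 0.91 CPM at 0 h, 18.1 and 17.8 at 6 h, then 11.6 and 13.5 at 72 h. A site at 34.83 kb, chosen in the same way, went from 4.42 and 4.35 CPM to 17.6 and 31.0 and then to 14.1 and 13.7.

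The site at the ETS2 start, chr21:38805222-38806561, which covers the more downstream annotated start and begins 39 bases after the other, was the strongest in the window at 0 h. It had 53.3 and 52.6 CPM at 0 h, 30.3 and 36.8 at 6 h, then 16.8 and 19.2 at 72 h, with no overlap between the times. It fell by 0.65 at 6 h and by 1.56 at 72 h (SE 0.15 and 0.16, edgeR adjusted p = 0.0018 and 2.4e-08). Under the other scalings the fall at 72 h lay between 0.44 with loess offsets and 1.74 with RLE and was called in each, and the fall at 6 h was not called with shared-site factors (0.06). A weak site just inside the gene, at chr21:38806843-38807065, had 2.39 and 2.75 CPM at 6 h, then 1.19 and 1.01 at 72 h. That fall of 1.24 (edgeR, adjusted p = 0.0067) was not called with total counts (0.051) or shared-site factors (0.19).

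ETV6 had a falling gene start and gains at some sites in its long body. In its window 25.9% of tested sites were higher at 6 h and 33.3% at 72 h, against 23.4% and 38.2% of all tested sites. The share of gains was thus not above that of all sites at 72 h. The start site, chr12:11648644-11650447, covers the promoter printed above. It had 24.5 and 31.2 CPM at 0 h, 17.2 and 22.3 at 6 h, then 11.2 and 10.1 at 72 h, and it fell by 0.49 at 6 h and by 1.39 at 72 h (SE 0.18 and 0.19, edgeR adjusted p = 0.038 and 1.1e-06). The fall at 72 h was called under all 5 scalings, with its smallest size, 0.42, under shared-site factors. The fall at 6 h was not called with total counts (0.13) or shared-site factors (0.43).

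Within the ETV6 body, a pair of neighbouring sites opened, and whether their rates differed was not tested. The site at chr12:11719614-11720291 had 1.04 and 1.19 CPM at 0 h, 5.54 and 9.80 at 6 h, then 8.30 and 9.15 at 72 h. Its log2 change was 2.81 ± 0.32 at 6 h and 2.95 ± 0.31 at 72 h (edgeR, adjusted p = 4.3e-07 and 5.1e-08). Its 6 h and 72 h libraries overlapped, and the change of 0.14 between them was not called (edgeR, adjusted p = 0.67). With shared-site factors that change was 0.81 and was called (edgeR, adjusted p = 0.0086). The site at chr12:11718591-11719191 had 0.32 and 0.43 CPM, then 1.19 and 2.18, then 3.595 and 6.08, each time above the one before (log2 3.64 ± 0.44 at 72 h, edgeR adjusted p = 3.1e-07). Near the 3′ end, chr12:11884594-11885647 had 0.65 and 0.81 CPM at 0 h, 0.17 and 1.42 at 6 h, then 5.74 and 7.26 at 72 h. It rose after 6 h, by 2.72 ± 0.40 on the log2 scale (edgeR, adjusted p = 1.8e-05). Its 6 h libraries lay below and above both 0 h libraries, so a change by 6 h could not be read (0.41 ± 0.52, edgeR adjusted p = 0.56).

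The largest ETV6 loss at 6 h among sites with a mean of at least 1 CPM was partly regained by 72 h with TMM. The site at chr12:11798738-11799355, 149.37 kb inside the gene, had 6.63 and 7.60 CPM at 0 h, 1.11 and 0.85 at 6 h, then 4.16 and 3.47 at 72 h, with no overlap between the times. It fell by 2.92 at 6 h and rose by 2.01 from 6 to 72 h (SE 0.32 in both, edgeR adjusted p = 2.3e-07 and 3.4e-05). It was 0.90 below 0 h on the log2 scale at 72 h with TMM (adjusted p = 0.0036), and 0.07 above with shared-site factors (0.82). The site 10.65 kb inside the gene did the reverse, with 0.13 and 0.81 CPM at 0 h, 2.56 and 1.74 at 6 h, then 1.01 and 0.90 at 72 h. Its fall of 1.12 after 6 h (edgeR, adjusted p = 0.047) was not called with total counts (0.18) or shared-site factors (0.42).

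SPI1 lost signal at its start and gained it at a few sites. The start site, chr11:47378144-47378947, had 36.8 and 39.4 CPM at 0 h, 17.7 and 21.7 at 6 h, then 11.4 and 11.9 at 72 h, with no overlap between the times. It fell by 0.94 at 6 h and by 1.71 at 72 h (SE 0.17 in both, edgeR adjusted p = 0.0001 and 1.6e-08), and both falls were called under all 5 scalings. With shared-site factors, which gave the smallest size, it fell by 0.75 at 72 h. The largest loss at 6 h, at chr11:47399891-47401340, 22.07 kb before the SPI1 start and nearest to SLC39A13, went from 18.5 and 18.2 CPM to 6.82 and 10.1 and then 7.24 and 7.73. It fell by 1.09 at 6 h (SE 0.21, edgeR adjusted p = 0.00029).

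Inside SPI1, the site at chr11:47360884-47361548 rose from 1.49 and 1.96 CPM at 0 h to 2.13 and 3.51 at 6 h, then 4.91 and 5.47 at 72 h (log2 1.57 ± 0.31 at 72 h, edgeR adjusted p = 0.00013). A stronger internal site, 12.15 kb from the start and named after its values were seen, went from 6.30 and 7.17 CPM to 10.7 and 15.5 and then 14.5 and 12.8. The largest 6 h rise in the window lay 45.64 kb before the start, nearest to PSMC3, at chr11:47423938-47424446, with 1.30 and 1.05 CPM at 0 h, 5.45 and 6.51 at 6 h, then 3.28 and 3.11 at 72 h (log2 2.37 ± 0.31 at 6 h, edgeR adjusted p = 3.3e-06). Part of this crowded window belongs to other genes. Its strongest site, chr11:47407801-47409064, lies at an annotated start of SLC39A13, and went from 88.4 and 105.1 CPM at 0 h to 70.6 and 68.9 at 6 h, then 27.2 and 33.7 at 72 h. The fall of 1.67 at 72 h shrank to 0.07 (adjusted p = 0.62) with loess offsets.

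GABPA had the fewest sites. Its start site, chr21:25734233-25736276, also covers the start of ATP5PF, a subunit of mitochondrial ATP synthase transcribed the other way. It had 84.1 and 73.5 CPM at 0 h, 70.0 and 69.3 at 6 h, then 32.4 and 39.9 at 72 h. The change at 6 h, -0.18 ± 0.14, was not called (edgeR, adjusted p = 0.34), and the fall at 72 h was 1.12 (SE 0.14, adjusted p = 6.1e-07). That direction turned with loess offsets, which gave 0.43 (adjusted p = 0.0063), and the fall was not called with shared-site factors (0.30). A gain 35.20 kb before the start, nearest to JAM2, at chr21:25699397-25700140, had 2.14 and 1.67 CPM at 0 h, 3.92 and 5.44 at 6 h, then 6.57 and 7.05 at 72 h (log2 1.85 ± 0.28 at 72 h, edgeR adjusted p = 6.4e-06). The largest GABPA fall by the naming rule, 17.14 kb before the start at chr21:25717647-25718026, was 1.17 at 72 h (adjusted p = 0.0054) and was not called with total counts (0.094) or shared-site factors (0.61).

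**Figure D4:**
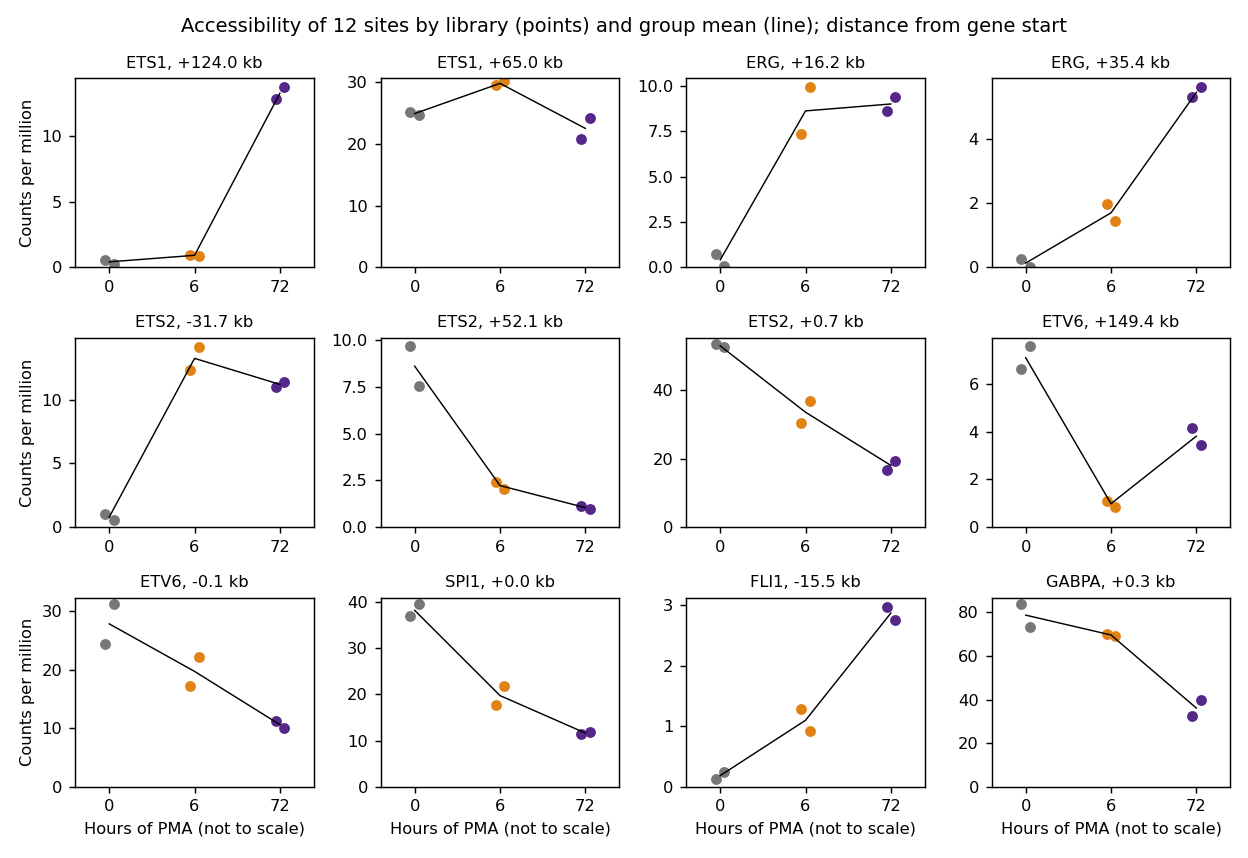
CPM of 12 sites by library (points) and group mean (line) at 0, 6 and 72 h of PMA; each panel has its own axis from 0 and gives the distance of the site from the gene start. The panels show late opening (ETS1 at 124.0 kb), opening by 6 h that was kept (ERG at 16.2 kb, ETS2 at -31.7 kb), loss (ETS2 at 52.1 kb) and a dip at 6 h (ETV6 at 149.4 kb). The gene starts shown fell on this TMM scale.

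Sites at and away from gene starts were counted apart. Of the 14 member sites within 1 kb of an annotated start of any gene, 7 were higher and 5 lower at 72 h. The 5 lower sites are those over the starts of ETS2, ETV6, SLC39A13, PSMC3, and GABPA with ATP5PF. Under all 5 scalings, 3 of these 5 stayed called lower. With TMM, 67.4% of all tested sites at annotated starts were lower and 13.7% higher at 72 h. Falls at starts were thus common across the genome on this scaling, and their shares under other scalings were not counted. The median change of all window totals at 72 h moved from -0.72 with TMM to -0.03 with loess offsets and 0.25 with shared-site factors. At 6 h, 5 of the 14 were higher and 4 lower, against 10.6% and 35.4% of all start sites, and between 6 and 72 h 1 was higher and 7 lower, against 7.55% and 60.4%. Of the 191 tested member sites elsewhere, 122 were higher (63.9%) and 16 lower (8.38%), against 40.9% and 25% of all other tested sites. At 6 h 63 of them were higher and 14 lower, against 24.8% and 14.7%, and between 6 and 72 h 101 and 17, against 23.7% and 16.5%. SPI1, whose start is not in the promoter table, is counted among the latter.

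The windows of the other 21 ETS genes held 379 sites outside those above, of which 377 were tested. At 72 h 130 of these were higher and 143 lower, beside 38.2% and 29.2% of all tested sites. At 6 h 93 were higher and 81 lower, beside 23.4% and 16.8%. Under all 5 scalings, 82 of the 130 stayed called higher and 52 of the 143 lower at 72 h. At 6 h, 67 of the 93 and 38 of the 81 stayed called. No test compared the sets. By window total with TMM, 3 of the 21 genes were higher at 72 h, SPIC, ELK3 and EHF. Of the rest, 14 were lower and 4 were not called. The shares higher and lower were near the 15.8% and 71.3% of all protein-coding windows. Of the 7 genes above, 4 were higher and 2 lower; the fourth, ETS2 with 0.23 (adjusted p = 0.033), was not called with RLE (0.66). At 6 h with TMM, 5 of the 21 were higher and 10 lower. The calls at 72 h depend on the scaling. With shared-site factors ETV4, ELF3, ELK1 and ELK4, lower with TMM, were called higher, by 0.44, 0.34, 0.41 and 0.60. FEV, ETV3, ETV3L and ETV7, not called with TMM, were also called higher. ETV2, ERF, ELF1, ELF2, SPIB and SPDEF stayed called lower, and ETV1, ETV5, ELF4 and ELF5 were no longer called. With TMM the largest rise among the 21 was at SPIC, a relative of SPI1 with a role in macrophages, by 1.46 ± 0.21 (edgeR, adjusted p = 2.6e-06) over 3 sites. The largest fall was at ELF2, by 1.45 (SE 0.10, adjusted p = 3.9e-10). Both kept their direction under all 5 scalings but not their rank. With loess offsets ELK3 (1.40) lay above SPIC (1.32). ELF1 (-0.74), ETV2 (-0.54), SPDEF (-0.51) and ELF5 (-0.47) then lay below ELF2 (-0.45). ERG and ETS1 stood above each of the other 26 genes in the change of window total at 72 h with TMM, and SPIC and FLI1, at 1.46 ± 0.21 and 1.18 ± 0.14, changed places with loess offsets.

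**Figure D5:**
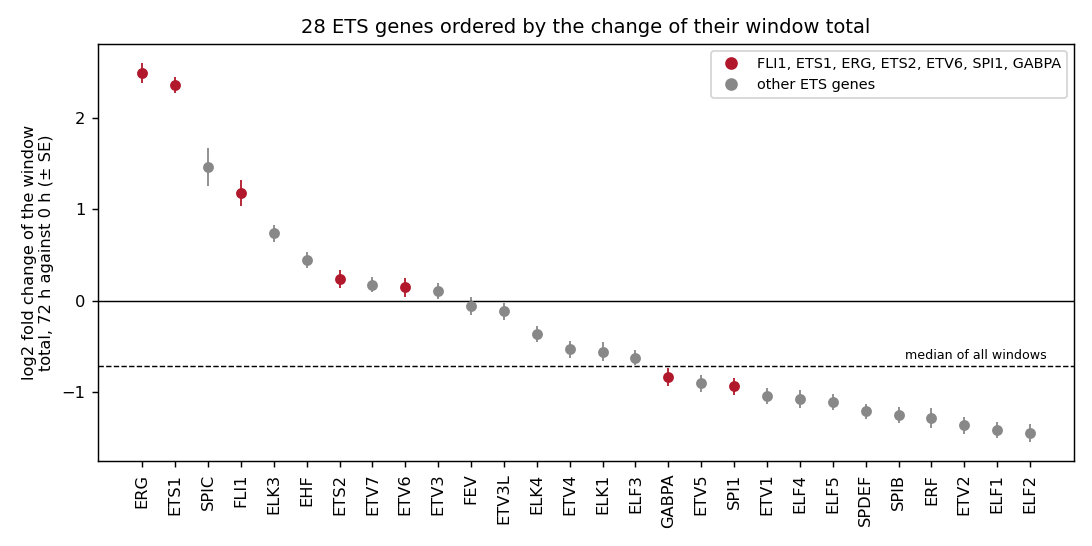
Log2 fold change of the window total at 72 h against 0 h (points, with SE bars) for 28 ETS genes in order; red points are the 7 genes described and the dashed line is the median of all protein-coding windows, -0.72. ERG and ETS1 lie highest, at 2.50 and 2.37, and ELF2 lowest, at -1.45.

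Over the 6 libraries, the family member whose log2 window total ran most alike was found for each gene by Pearson's r, as a description of values that share libraries and scaling. FLI1 was most like ETS1 (0.95), ETS1 most like SPIC (0.98) and ERG most like EHF (0.96). ETS2 was most like ETV7 (0.97), SPI1 most like ELF2 (1.00 after rounding), GABPA most like ERF (0.98) and ETV6 most like ELK3, with the lowest value (0.75).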

How the data were processed

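ATAC-seq was done on 6 K562 libraries, 2 at each of 0, 6 and 72 h of PMA. Whole-number read counts per library at 181135 sites, as deposited by the authors, were treated as raw counts; the table is on hg38, and the submitters' processing notes name Trim Galore 0.4.3, BWA 0.7.17, SAMtools 1.9, deepTools 3.0.1, MACS2, bedtools 2.26 and DESeq without saying what each did. The shift of read ends and the read filters are not given in the sources used here. The authors' deposited table also holds their log2 fold changes, adjusted p-values and class names, and their deposited peak lists, 1 per library, give each peak a fold enrichment; these peak values are the authors' and describe peaks within a list only.

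Gene bodies came from a RefSeq table (GRCh38.p14, 20033 protein-coding genes). Starts came from a promoter table that holds ERG, ETS2, ETV6 and GABPA. The strands of FLI1, ETS1 and SPI1 were added from general knowledge. Their start was taken as the outer end of the gene body, so inner starts of these genes were not seen. Counts were fitted with edgeR 4.0.16 in R 4.3.3: TMM scaling, the default low-count filter (minimum 10), which left 177759 sites, a quasi-likelihood model over all 6 libraries, and Benjamini-Hochberg adjustment over all tested sites. SE is the log2 change divided by the square root of the F statistic. Window totals sum the counts of all sites in a window and were tested over 19307 genes with the site-level scaling; neighbouring windows can share sites. CPM are counts scaled by the TMM-adjusted library total. The fit was tested on simulated data. Alternatives were 4 other scalings, no filter, DESeq2 1.42.0, a replicate term, a stricter threshold, each library left out, only the 4 libraries compared, and other rules for assigning sites.

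The members and lists were chosen with earlier results of these data known. Named sites are, for each gene, the site at its start and, per comparison, the largest called rise and fall among sites with a mean of at least 1 CPM and no overlap between the groups' libraries; sites named beyond this rule are marked. Replicates of a time differed by more than sampling noise (chi-square per degree of freedom 4.95, 4.41 and 3.50), so none was a copy. Intervals cover counting error only, since no molecular identifiers are described.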

Additional observations from a re-analysis of the deposited data

How the results depend on the processing

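Gains were the stabler side. The counts of member sites called higher stayed within 1.5 times under every setting tried except restriction to gene bodies, which leaves fewer sites (40 at 6 h, 72 at 72 h and 57 between 6 and 72 h). Counts of sites called lower moved more. At 6 h they were 28 with loess offsets, 9 with factors from shared sites, 8 with adjusted p under 0.01 and absolute log2 above 1, and 8 in gene bodies. At 72 h they were 13 with total counts, 7 with shared-site factors, 8 in gene bodies and 13 among sites nearest to a member. Between 6 and 72 h they were 8 with total counts, 13 with loess offsets, 1 with shared-site factors, 6 at the stricter threshold and 10 in gene bodies. Apart from fewer sites or a stricter rule, the cause was not tested.

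Leaving out 1 library at a time gave 48 to 64 sites higher and 13 to 17 lower at 6 h, 118 to 132 and 15 to 21 at 72 h, and 82 to 108 and 9 to 26 between the later times. The last count of lower sites, 24 with all libraries, was 10 without 6 h replicate 2, 12 without 72 h replicate 1 and 9 without 72 h replicate 2. With a library left out, the lone library of that time is assumed to vary like the others.

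Called window totals of the 7 genes ran from 3 to 3 higher and 0 to 2 lower at 6 h, 3 to 4 and 2 to 2 at 72 h, and 3 to 4 and 2 to 3 between the later times when 1 library was left out; the 1 lower total at 6 h became 0 without 0 h replicate 2 or 6 h replicate 1 and 2 without either 72 h library. That total became 2 with RLE and 0 with total counts, loess offsets or shared-site factors. With loess offsets and with shared-site factors, 0 totals were lower at 72 h, and between 6 and 72 h 5 were higher and 0 lower. Direction turned in 17 alternative values of the window totals, of which 10 were called neither with TMM nor with the alternative, and in 27 of the named sites, of which 18 were called in neither. Totals called in either fit that turned were ETS2 between 6 and 72 h (0.22 with loess offsets, 0.26 with shared-site factors) and, with shared-site factors, ETV6 at 6 h (0.24), SPI1 at 6 h (0.041) and 72 h (0.028), and GABPA at 72 h (0.13) and against 6 h (0.016). Uncalled totals that turned were FLI1 at 6 h (-0.089 with RLE), ETV6 at 6 h (0.083 with total counts, 0.15 with loess offsets) and 72 h (-0.039 with RLE), and GABPA at 6 h (0.024 with loess offsets, 0.12 with shared-site factors). Without 1 library, the FLI1 total at 6 h ran from -0.11 to 0.20 and the ETV6 total from -0.24 to 0.073.

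Of the named sites called in either fit, the ETS1 site at 64.95 kb turned at 72 h (0.35 with total counts, 0.77 with loess offsets, 0.82 with shared-site factors). It also turned against 6 h (0.35 and 0.27 with the last 2). The others that turned were the ETV6 site at 149.37 kb at 72 h (0.069 with shared-site factors), the SLC39A13 start at 6 h (0.0040 with loess offsets), and the GABPA start with loess offsets at 72 h (0.43) and against 6 h (0.15). Uncalled named sites that turned were, at 72 h, ERG at 185.25 kb (-0.048 with RLE, -0.32 with loess offsets, -0.047 with DESeq2) and ETS2 at 1.77 kb (0.40 with shared-site factors), and, against 6 h, ETS2 at 31.69 kb before the start (0.12 with total counts, 0.42 with shared-site factors), SPI1 at 22.07 kb before the start (0.16 with total counts, 0.15 with loess offsets, 0.47 with shared-site factors) and GABPA at 17.14 kb before the start (0.24 with shared-site factors). At 6 h the uncalled GABPA start gave 0.28 with loess offsets and 0.117 with shared-site factors. Without 1 library, uncalled changes ran at 6 h from -1.31 to 1.19 at ETS2 35.58 kb before the start and from -2.14 to 0.94 at ETV6 235.45 kb. Against 6 h they ran from -0.14 to 0.35 at ERG 16.24 kb, from -0.17 to 0.70 at ETV6 70.28 kb and from -0.43 to 0.18 at SPI1 22.07 kb before the start, and at 72 h from -0.026 to 0.27 at ERG 185.25 kb. Of the other values of named sites, 1016 stayed the same in direction and call, 69 lost and 19 gained a call.

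The labels number the libraries 1 and 2 at each time. The authors' column names also carry a code common to all libraries numbered 1 and a different code for those numbered 2, without giving its meaning. Deviations of same-numbered libraries from their group means correlated weakly over sites (0.082, 0.053 and 0.085). Counting noise lowers such correlations, so they cannot show whether same-numbered libraries shared a culture, day or batch. With the replicate number as a block, 70 sites were higher and 18 lower at 6 h, 131 and 20 at 72 h, and 101 and 25 between the later times, and window totals gave 3 and 1, 4 and 2, and 4 and 3. The smallest library, of 12258890 counts at 6 h, limits what can be seen there at sites with few counts.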

Other observations

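The class names in the authors' deposited table did not follow the direction of change at these sites. Of the 209 sites, 125 were in the static class, 62 in classes named up and 22 in classes named down. In the authors' deposited table, 21 of the 22 sites of the down classes had a log2 fold change above 0 at 72 h. In the edgeR fit, 21 of those 22 were called higher at 72 h, and of the 62 in the up classes 59 were called higher and 3 lower. Over all sites of the authors' deposited table, 69.9% of 10935 sites in down classes and 70.8% of 26674 in up classes had a 72 h log2 fold change above 0. The lost site downstream of ETS2, at 52.14 kb, stood in the late up class of the authors' deposited table with a log2 fold change of -3.16 there. The class names were therefore not used for direction, and the cause was not tested.

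Sites with a level lower at 6 h than at either other time were not limited to ETS1; 2 more are given here, chosen after their values were seen. A site of the FLI1 window, 151.1 kb from the gene start, lies beyond the gene end and nearest to KCNJ1. It had 0.91 and 0.53 CPM at 0 h, 0 and 0.09 at 6 h, then 1.71 and 1.77 at 72 h. In the ETV6 window, the site 248.3 kb from the start also lies beyond the gene end. It had 1.43 and 0.91 CPM at 0 h, 0.17 and 0 at 6 h, then 0.49 and 0.28 at 72 h. The 0 h level was not exceeded at 72 h in this last site.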
